A study of Mus musculus with 8 samples.

Results

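The MYC, MAX and MGA network is a family of 10 transcription factor genes, Myc, Mycn, Mycl, Max, Mxd1, Mxd3, Mxd4, Mxi1, Mnt and Mga. They were taken by symbol from the authors' table of FPKM, a fragment count corrected for transcript length and for depth. All 10 were found, each at 1 locus, among 50060 loci with a gene name. The RNA came from blastocyst-derived mouse embryonic stem cells of strain C57BL/6J, grown with leukemia inhibitory factor (LIF) on fibroblast feeder cells. Every group carried floxed Mll1 alleles and a tamoxifen-activated Cre (Mll1fl/fl; Cre-ER TM), and the labels do not name the promoter that drives it. There were 4 groups of 2 libraries. The first had MM401, which blocks the histone H3 lysine methyltransferase MLL1, at 100 µM (the MM401 group). The Mll1-deleted group received 4-hydroxytamoxifen at 5 µM, which activates the Cre and removes the floxed part of Mll1. The 2i group had 2 kinase inhibitors, 1 µM PD03259010 against MEK and 3 µM CHIR99021 against GSK3. Treatments ran for 5 days, and the untreated group had no agent. Because 2i was given in knockout serum replacement, and MM401 and 4-hydroxytamoxifen in serum, agent and medium cannot be told apart for 2i. The labels name no medium for untreated cells, and no group had vehicle alone.

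The deposited tables hold 1 value per group, made from both libraries by the authors. No spread between libraries can be had, and no test was made. Square brackets hold the authors' lower and upper limit of a group's FPKM. Log2 ratios are of FPKM + 1. A locus counted as higher or lower at a 2-fold difference, and "separate" means that the limits of both groups did not overlap. Total estimated counts were between 76501619 and 90728747 per group. Kmt2a, the gene symbol of Mll1, had 14.6 FPKM in MM401, 11.8 in Mll1-deleted, 8.72 in 2i and 15.5 in untreated cells. That value covers the whole gene and does not measure the deletion. The 8 stem cell markers were all above 28 FPKM in each group, with Pou5f1 at 294 FPKM in MM401, 1008 in Mll1-deleted, 1196 in 2i and 874 in untreated cells. The 8 summed to 10029 FPKM in MM401, 11278 in Mll1-deleted, 8400 in 2i and 9569 in untreated cells. Of those sums 1 locus held 8828, 8382, 5734 and 7220 FPKM in that order. Against untreated cells 2 ratios were above 0 and 6 below in MM401, 6 and 2 in Mll1-deleted, and 4 and 4 in 2i cells. All 15 fibroblast markers were also present. They summed to 1520 FPKM in MM401, 717 in Mll1-deleted, 3267 in 2i and 1111 in untreated cells. Against untreated cells 2 were higher and 1 lower in MM401, 2 were lower in Mll1-deleted and 6 were higher in 2i cells. Of 7 neural and endoderm markers, 0 passed 2-fold in MM401, 4 were lower in Mll1-deleted, and 2 were lower and 1 higher in 2i cells. Over all loci tested against untreated cells, 7.04% were higher and 6.08% lower in MM401. These shares were 3.03% and 3.66% in Mll1-deleted, and 2.92% and 4.16% in 2i cells.

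MYC proteins (MYC, MYCN and MYCL) bind DNA only as pairs with MAX, mostly at the E-box CACGTG, and activate genes of growth, ribosome making and metabolism. The MXD proteins and MNT also pair with MAX and bind the same sites, but recruit the SIN3 corepressor, so both sides compete for one partner. MGA pairs with MAX too and anchors a Polycomb complex, PRC1.6, that keeps germline genes silent in embryonic stem cells. In these cells MYC and MYCN are known to act redundantly in self-renewal.

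Promoter sequence was held for 9 of the 10 members in RefSeq (GRCm38.p6), each as 300 bases of which 250 lie before the start of the gene. The E-box CACGTG, which reads the same on both strands, was found in the promoters of Max, Mxd4 and Mnt. Those 3 of 9 genes compare with 8.09% of 27025 genes with such a promoter. The 3 are printed because they hold the site that the network's own proteins bind. The Mycn promoter is printed because Mycn was the member that moved most between groups. Capitals mark CACGTG, and none is in this window of Mycn.
Mycn, chr12:12941787-12942086, minus strand: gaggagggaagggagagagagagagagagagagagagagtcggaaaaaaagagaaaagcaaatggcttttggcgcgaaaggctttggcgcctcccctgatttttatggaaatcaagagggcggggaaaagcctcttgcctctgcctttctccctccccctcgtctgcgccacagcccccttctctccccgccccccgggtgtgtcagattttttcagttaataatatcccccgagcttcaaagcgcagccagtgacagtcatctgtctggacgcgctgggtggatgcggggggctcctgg
Max, chr12:76962199-76962498, minus strand: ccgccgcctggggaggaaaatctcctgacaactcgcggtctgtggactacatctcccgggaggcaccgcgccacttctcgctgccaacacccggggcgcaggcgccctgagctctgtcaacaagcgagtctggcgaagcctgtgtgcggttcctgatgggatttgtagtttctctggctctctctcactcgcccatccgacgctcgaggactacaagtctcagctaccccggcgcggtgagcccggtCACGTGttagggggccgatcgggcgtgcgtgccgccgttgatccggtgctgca
Mxd4, chr5:34187661-34187960, minus strand: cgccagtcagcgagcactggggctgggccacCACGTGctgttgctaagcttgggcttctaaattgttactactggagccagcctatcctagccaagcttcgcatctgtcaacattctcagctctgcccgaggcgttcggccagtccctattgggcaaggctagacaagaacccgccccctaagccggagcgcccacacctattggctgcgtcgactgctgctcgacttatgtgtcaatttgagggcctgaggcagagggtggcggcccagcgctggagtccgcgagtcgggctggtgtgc
Mnt, chr11:74830674-74830973, plus strand: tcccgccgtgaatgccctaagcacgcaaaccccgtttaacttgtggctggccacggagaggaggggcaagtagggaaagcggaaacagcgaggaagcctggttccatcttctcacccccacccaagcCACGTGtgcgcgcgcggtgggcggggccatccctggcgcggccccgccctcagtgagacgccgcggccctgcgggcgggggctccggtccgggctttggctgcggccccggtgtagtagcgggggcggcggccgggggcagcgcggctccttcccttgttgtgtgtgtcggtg
The first base of the E-box lay 3 bases before the annotated start in Max, 219 bases before it in Mxd4 and 123 bases before it in Mnt.

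Mycn, the MYC gene of highest level in every group, fell in MM401 cells. Its level was 28.9 FPKM [23.2 to 34.5] in MM401, 98.8 [79.5 to 118] in Mll1-deleted, 66.6 [53.7 to 79.5] in 2i and 112 [90.5 to 133] in untreated cells. MM401 cells were lowest and their limits lay below those of each other group. Those of 2i cells lay below those of Mll1-deleted and untreated cells, which overlapped each other. Against untreated cells the log2 ratio was −1.92 in MM401, where the untreated FPKM was 3.88 times as high. Of 16734 loci tested in that comparison, 2.87% had a larger difference in size. In 2i cells the ratio was −0.74, short of 2-fold but with separate limits. In Mll1-deleted cells it was −0.18. The gene lies on chromosome 12, 12936093 to 12941914 (mm10), on the minus strand. Its estimated counts were 6977 in MM401, 23743 in Mll1-deleted, 16130 in 2i and 27090 in untreated cells, so this is the most deeply counted of the MYC genes.

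Myc, the founding member, had a lower value in all 3 treated groups. It had 7.35 FPKM [5.38 to 9.31] in MM401, 8.69 [6.14 to 11.2] in Mll1-deleted, 8.96 [6.77 to 11.1] in 2i and 14.0 [10.5 to 17.4] in untreated cells. The 3 treated groups overlapped one another. Only the limits of MM401 cells were separate from the untreated ones. The log2 ratios against untreated cells were −0.84, −0.63 and −0.59 for MM401, Mll1-deleted and 2i cells, none past 2-fold. These 3 ratios share the untreated value. In the estimated counts as deposited, with a pseudocount of 10, Myc did pass 2-fold in MM401 cells, with 1136 counts in MM401 and 2306 in untreated cells. With counts scaled to the group totals it did not (−0.87). Myc lies on chromosome 15, 61985391 to 61990374, on the plus strand.

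Mycl, the third MYC gene, did not follow the other two. It had 9.26 FPKM [6.60 to 11.9] in MM401, 12.9 [9.62 to 16.1] in Mll1-deleted, 13.7 [10.1 to 17.4] in 2i and 10.4 [8.19 to 12.5] in untreated cells. All 4 intervals overlapped, and the log2 ratios against untreated cells were −0.15, 0.29 and 0.38 in the same order of treated groups. Per length, Mycn was 3.93 times as high as Myc in MM401, 11.4 times in Mll1-deleted, 7.44 times in 2i and 8.01 times in untreated cells.

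**Figure D1:**
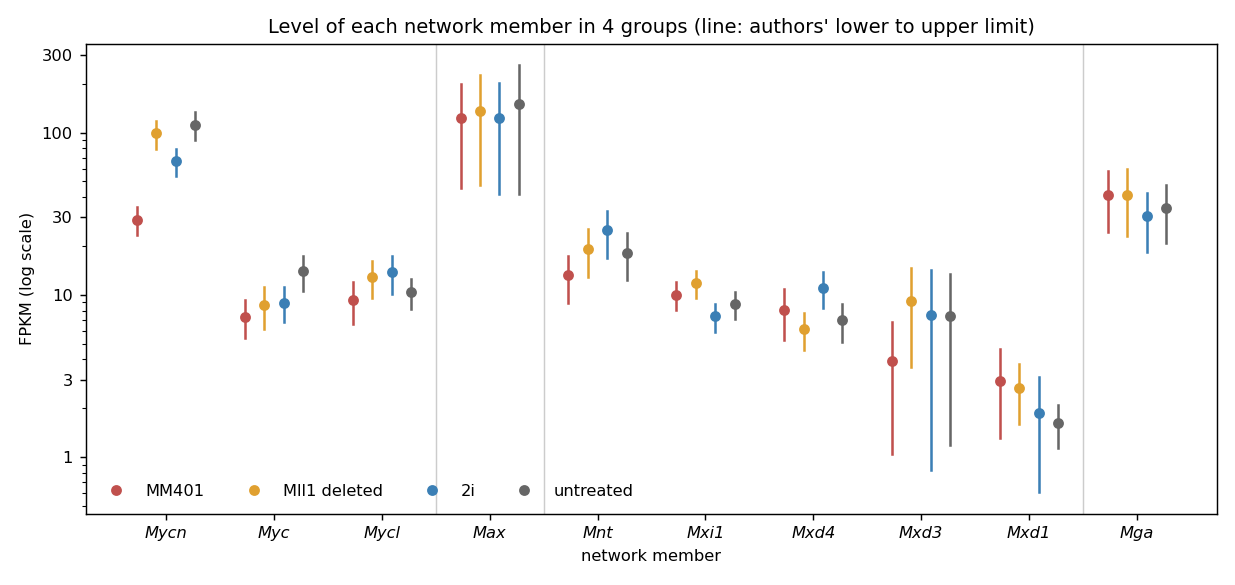
FPKM of each member (log axis) in MM401, Mll1-deleted, 2i and untreated cells, 1 point per group, with a line from the authors' lower to upper limit. Mycn in MM401 cells (28.9 FPKM) stands below the other groups (66.6 to 112 FPKM), while the 4 lines overlap at Mycl, Max, Mnt, Mxd3, Mxd1 and Mga.

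Max, the common partner, had the highest FPKM of the 10 genes in every group, though its limits overlapped those of the next member there. It had 123 FPKM [45.6 to 200] in MM401, 136 [47.6 to 225] in Mll1-deleted, 122 [42.1 to 202] in 2i and 150 [41.6 to 259] in untreated cells. All 4 intervals overlapped, and the log2 ratios against untreated cells lay between −0.30 and −0.14. These intervals are wide. The upper limit lay 72.3% above the untreated value, while 2 SD of its estimated count, from the authors' variance, was 18.7%. The estimated counts ordered the groups in another way, with 5953 in MM401, 8398 in Mll1-deleted, 8776 in 2i and 8996 in untreated cells. A unit of FPKM at Max stood for 48.5 counts in MM401, 61.6 in Mll1-deleted, 71.8 in 2i and 59.8 in untreated cells. At Mycn it stood for between 240 and 242 counts in all 4 groups. The locus has 7 annotated transcripts, and whether their mix differed was not tested. Max lies on chromosome 12, 76937215 to 76962366.

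The repressor side was led by Mnt, which is known as a broadly expressed antagonist of MYC. It had 13.2 FPKM [8.95 to 17.5] in MM401, 19.1 [12.8 to 25.5] in Mll1-deleted, 24.9 [17.0 to 32.9] in 2i and 18.2 [12.3 to 24.0] in untreated cells. The lowest value was in MM401 and the highest in 2i, and even these overlapped. The log2 ratio of MM401 over 2i cells was −0.87.

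Mxd4, an MXD repressor linked to differentiation, had 8.04 FPKM [5.28 to 10.8] in MM401, 6.17 [4.6 to 7.75] in Mll1-deleted, 11.1 [8.31 to 13.8] in 2i and 6.95 [5.15 to 8.74] in untreated cells. The log2 ratio of 2i over untreated cells was 0.60, with limits that overlapped narrowly, and the ratio of Mll1-deleted over 2i cells was −0.75, with separate limits. The summed fibroblast markers ordered the 4 groups as Mxd4 did, highest in 2i, then MM401, untreated and Mll1-deleted cells. Of that sum 1 locus held 676 FPKM in MM401, 351 in Mll1-deleted, 1884 in 2i and 547 in untreated cells. Its lower limit was 0 in each group, and single markers did not all have this order. The part of the fibroblast markers in the Mxd4 values was not tested. Fewer cells of a type and less RNA per cell cannot be told apart in such bulk RNA.

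Mxi1, another SIN3-binding repressor, had 10.04 FPKM [8.09 to 12.0] in MM401, 11.8 [9.52 to 14.1] in Mll1-deleted, 7.36 [5.92 to 8.79] in 2i and 8.79 [7.11 to 10.5] in untreated cells. The ratio of Mll1-deleted over 2i cells was 0.61 with separate limits, so Mxd4 and Mxi1 differed in opposite directions between these groups. Against untreated cells the Mxi1 limits overlapped in each case. Mxi1 shares 194 exon bases with Gm10197, a gene on the other strand. The FPKM of Gm10197 was 9.57 times that of Mxi1 in MM401, 9.56 times in Mll1-deleted, 9.28 times in 2i and 10.03 times in untreated cells. No label or header says if reads were assigned by strand, so reads of the pair cannot be told apart and Mxi1 is uncertain.

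Mxd3, an MXD gene tied to S phase in other cells, had 3.93 FPKM [1.04 to 6.83] in MM401, 9.17 [3.60 to 14.7] in Mll1-deleted, 7.51 [0.837 to 14.2] in 2i and 7.35 [1.19 to 13.5] in untreated cells. It was lower in MM401 than in Mll1-deleted cells by the 2-fold rule (−1.04), with overlapping limits. That call was lost with estimated counts scaled to the group totals (−0.99) and with ratios set relative to the median locus (−0.95). The counts as deposited kept the call. Its annotated exons share 105 bases with Prelid1 on the other strand, a gene of 61.7 to 165 FPKM. That is 15.7 times the Mxd3 value in MM401, 10.6 in Mll1-deleted, 21.9 in 2i and 14.6 in untreated cells. The file's Mxd3 locus on chromosome 13 begins at 55322055, while the annotated gene begins at 55325168. The overlap of Prelid1 with that longer locus was not counted. As at Mxi1, reads of the pair cannot be told apart, so Mxd3 and its call are uncertain.

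Mxd1, the first MAD protein described, was the member of lowest level in all 4 groups. It had 2.96 FPKM [1.31 to 4.61] in MM401, 2.68 [1.6 to 3.76] in Mll1-deleted, 1.87 [0.606 to 3.13] in 2i and 1.61 [1.13 to 2.09] in untreated cells, and all 4 intervals overlapped. Its log2 ratio of 2i over untreated cells was 0.13 in FPKM but −0.27 in the counts as deposited, from 521 counts in 2i and 630 in untreated cells. Its ratios in MM401 (0.60) and Mll1-deleted cells (0.49) were positive in both units.

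Mga, the scaffold of PRC1.6, had 41.4 FPKM [24.5 to 58.3] in MM401, 41.3 [23.1 to 59.5] in Mll1-deleted, 30.4 [18.3 to 42.5] in 2i and 34.1 [20.9 to 47.3] in untreated cells. All 4 intervals overlapped, and no log2 ratio between any 2 groups exceeded 0.43 in size. The file's locus on chromosome 2 runs 119872533 to 119970106, while the annotated gene starts at 119897228, so the locus holds upstream sequence that the GENCODE annotation used here does not give to Mga.

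By the 2-fold rule, 1 of 10 members was lower and 0 were higher in MM401 than in untreated cells. Over all loci tested in that comparison 6.08% were lower and 7.04% higher, so the count of members stands near the background. Separate limits were found at 2 members, Mycn and Myc, and at 19.2% of all loci. Mll1-deleted cells had 0 of 10 members past 2-fold against untreated cells, where 3.03% of 16191 loci were higher and 3.66% lower, and 0 with separate limits, where 8.58% had them. The 2i cells also had 0 of 10 past 2-fold, where 2.92% of 16010 loci were higher and 4.16% lower. Their 1 member with separate limits was Mycn, and 10.9% of loci had them. The median member ratio was −0.22 in MM401, 0.17 in Mll1-deleted and −0.07 in 2i cells, beside −0.04, 0.05 and 0.08 over all loci tested. Without a test these medians say nothing particular to the network.

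**Figure D2:**
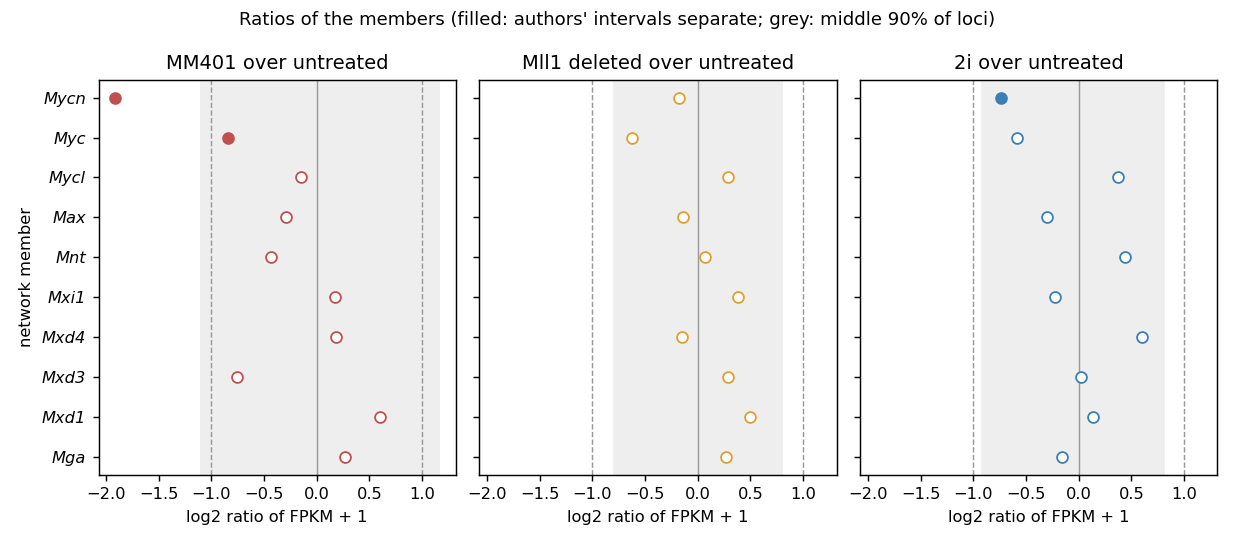
Log2 ratio of FPKM + 1 over untreated cells for each member in MM401, Mll1-deleted and 2i cells, with filled points where the authors' intervals were separate, dashed lines at 2-fold and the middle 90% of loci tested in grey. Mycn in MM401 cells (−1.92) is the 1 point outside the grey band, whose lower end there is −1.10.

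Between the treated groups, Mycn was again the member of largest ratio wherever MM401 was compared. Against Mll1-deleted cells its ratio was −1.74 with separate limits. There 2 of 10 members were lower, Mycn and Mxd3, where 5.03% of 16635 loci were lower and 5.49% higher, and 1 had separate limits, as 15.8% of loci did. Against 2i cells the Mycn ratio was −1.18 with separate limits, and 1 of 10 members was lower, where 11.1% of 16751 loci were lower and 10.4% higher. It was the 1 member with separate limits, which 28.2% of loci had. The Mycn call against 2i was lost in estimated counts scaled to the totals (−0.96). It was kept in the counts as deposited, with 6977 in MM401 and 16130 in 2i cells. Mll1-deleted against 2i cells had 0 of 10 members past 2-fold, where 5.97% of 16190 loci were higher and 5.18% lower. Its 3 members with separate limits were Mycn (0.56), Mxi1 (0.61) and Mxd4 (−0.75), and 16.3% of all loci had separate limits there. These comparisons share groups with those against untreated cells.

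The levels can also be set side by side as a balance of genes whose proteins compete for MAX. Myc, Mycn and Mycl summed to 45.5 FPKM in MM401, 120 in Mll1-deleted, 89.3 in 2i and 136 in untreated cells. The 4 MXD genes and Mnt summed to 38.2 FPKM in MM401, 49.0 in Mll1-deleted, 52.7 in 2i and 42.9 in untreated cells. Mga, which also pairs with MAX, is in neither sum, with 41.4 FPKM in MM401, 41.3 in Mll1-deleted, 30.4 in 2i and 34.1 in untreated cells. The ratio of the first sum to the second was 1.19 in MM401, 2.46 in Mll1-deleted, 1.69 in 2i and 3.18 in untreated cells. Mycn made up 63.5% of the MYC sum in MM401, 82.1% in Mll1-deleted, 74.6% in 2i and 82.1% in untreated cells. Without both Mycn and Mnt the ratio was 0.66 in MM401, 0.72 in Mll1-deleted, 0.82 in 2i and 0.98 in untreated cells. MM401 cells were still lowest and untreated cells highest, while Mll1-deleted and 2i cells changed places. RNA levels do not measure the proteins, whose stability GSK3 is known to regulate through FBXW7.

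**Figure D3:**
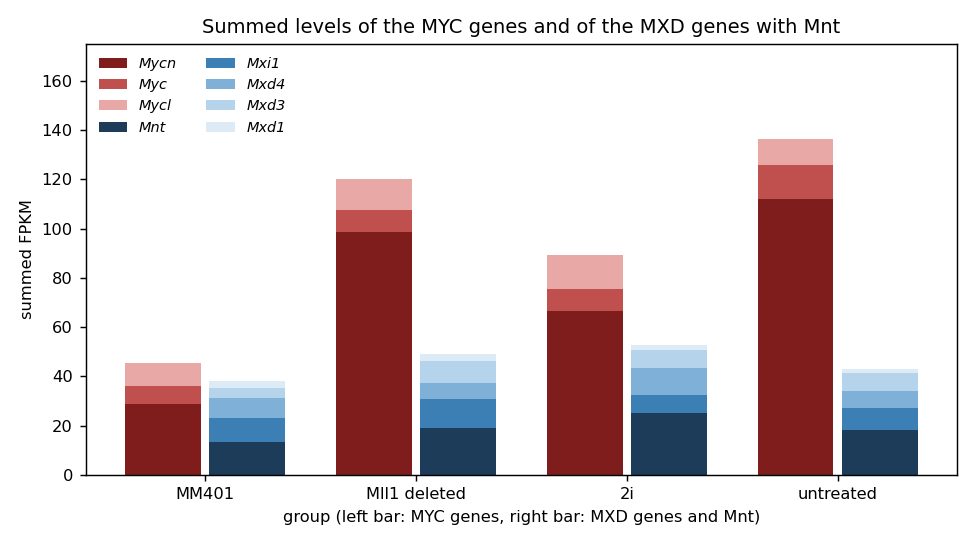
Summed FPKM per group, with Mycn, Myc and Mycl stacked in the left bar and Mnt, Mxi1, Mxd4, Mxd3 and Mxd1 in the right bar. The left bar is 45.5 FPKM in MM401 cells and 136 FPKM in untreated cells, while the right bars lie between 38.2 and 52.7 FPKM.

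A likeness search over 10191 loci named the 3 whose ratios against untreated cells came closest to those of a gene in all 3 treated groups. For Mycn the closest was Utf1, an embryonic stem cell chromatin factor, with ratios of −1.68 in MM401, −0.01 in Mll1-deleted and −0.85 in 2i cells. Its largest departure from Mycn was 0.24, and AC154266.1 and Gm27234 followed at 0.25 each. For Myc the closest were Slc16a1 (departure 0.07), 0610005C13Rik (0.10) and Ctsc (0.12). Slc16a1 encodes a lactate transporter. The files list it at 2 loci of the same position, and the one most like Myc is not the one of higher FPKM that stands in the MYC target list. The likeness rests on 3 ratios that share the untreated value.

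The genes around the network were read from lists of its cofactors and targets. Of 32 MYC targets of growth and metabolism in MM401 cells, 8 were lower, 1 was higher and 23 did not pass 2-fold, where 6.08% of all loci were lower and 7.04% higher. A ratio below 0 was found at 29, and the list median was −0.74, beside −0.04 over all loci. With counts scaled to the totals 6 were lower and 1 higher. Ldha (−1.78), which makes lactate, and Shmt2 (−1.49), a mitochondrial enzyme of one-carbon metabolism, had the largest ratios, both with separate limits. Ldha had 76.0 FPKM in MM401 and 264 in untreated cells. Cdk4, a cell cycle kinase, had 236 FPKM in MM401 and 653 in untreated cells. Tert (1.45), the telomerase catalytic subunit, was the 1 that was higher, with 26.3 FPKM in MM401 and 8.98 in untreated cells. Of the 8 stem cell markers 3 were lower in MM401 cells too, and their part in these values was not tested.

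In Mll1-deleted cells the same target list had 1 lower and 0 higher of 32, with a median of −0.11 beside 0.05 over all loci. Ccnd2, a G1 cyclin, was the lower one (−1.01, overlapping limits), a call lost with scaled counts (−0.86), where 3.66% of all loci were lower. The next largest ratio was that of Npm1 (−0.71), which encodes nucleophosmin. In 2i cells 0 were lower and 2 higher, Ccnd2 (1.18, overlapping limits) and Shmt2 (1.05), and the median was 0.35 beside 0.08. With scaled counts neither passed, at 0.43 for Ccnd2 and 0.91 for Shmt2, and the median was 0.19. Ccnd2 had 60.5 FPKM in MM401, 21.7 in Mll1-deleted, 103 in 2i and 44.6 in untreated cells, the order of the summed fibroblast markers, whose part was not tested. Of 26 targets with a promoter sequence, 10 held CACGTG. The list was chosen as MYC targets, so that share is not independent of the choice.

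Of 16 germline genes of the kind that PRC1.6 keeps silent, 3 were higher and 1 lower in MM401 cells, and 12 did not pass 2-fold, where 7.04% of all loci were higher and 6.08% lower. A ratio above 0 was found at 12, with a median of 0.58 beside −0.04 over all loci. Tex101 (2.36), which encodes a germ cell surface protein, had 6.53 FPKM in MM401, 3.66 in Mll1-deleted, 0.555 in 2i and 0.463 in untreated cells. Mov10l1 (1.41, overlapping limits), a helicase of the piRNA pathway, had 30.2 FPKM in MM401 and 10.8 in untreated cells. Stra8 (−1.04), a gene of meiotic entry, was the lower one, and Hormad1 (−0.96), a meiotic chromosome gene, also had separate limits on that side. With scaled counts 5 were higher and 1 lower. Tex101 and Tdrd1 (2.06 FPKM in MM401, and 0.707 in untreated cells) passed the filter of 1 FPKM only through MM401 cells. Both are among the 12 above 0, in the median and among the 5 higher with scaled counts. The list was not silent in untreated cells, where its median was 11.4 FPKM and 2 of the 16 genes were under 1 FPKM.

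In Mll1-deleted cells 2 of 15 germline genes tested were higher, Tex101 (1.67) and Mov10l1 (1.29, overlapping limits), and the median was 0.38 beside 0.05. Over all loci 3.03% were higher. Tex101 passed the filter of 1 FPKM only through the treated cells, here and in MM401, and Hormad1 (−0.79) had separate limits in the other direction. In 2i cells 0 of 14 passed 2-fold and 11 were below 0, with a median of −0.33 beside 0.08, and Smc1b (−0.92) and Ddx4 (−0.89) had the largest ratios with separate limits. With scaled counts 2 were lower. Smc1b is a meiotic cohesin subunit and Ddx4 a germ cell helicase. Mga did not pass 2-fold in any of these groups.

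The E-box was found in the promoters of 10 of the 16 germline genes, beside the 8.09% of all genes. The E2F letters TTCCCGC, searched on both strands because E2F6 is a PRC1.6 subunit, were found in 6 of 16, beside 5.29% of all genes. Neither motif holds the other. The list was chosen as genes repressed by the MGA complex, so neither share is independent of that choice. The windows below show 46 bases around the E-box of 4 of these genes, the sequence that a MAX pair could read, with CACGTG in capitals.
Ddx4, chr13:112652314-112652359, minus strand: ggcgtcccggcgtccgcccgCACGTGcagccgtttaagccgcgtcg
Mael, chr1:166238942-166238987, minus strand: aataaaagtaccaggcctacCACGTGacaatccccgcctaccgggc
Slc25a31, chr3:40708758-40708803, plus strand: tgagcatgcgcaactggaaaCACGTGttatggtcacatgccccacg
Taf7l, chrX:134476514-134476559, minus strand: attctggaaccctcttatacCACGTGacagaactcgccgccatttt
They are 4 of the germline genes with 1 E-box each, chosen after their matches were seen. Taf7l, a germ cell form of a TFIID subunit, had 24.7 FPKM in MM401, 13.6 in Mll1-deleted, 11.6 in 2i and 12.5 in untreated cells. Mael, a piRNA pathway gene, had 21.8 FPKM in MM401, 27.2 in Mll1-deleted, 13.5 in 2i and 16.5 in untreated cells. Presence of the letters does not show binding.

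**Figure D4:**
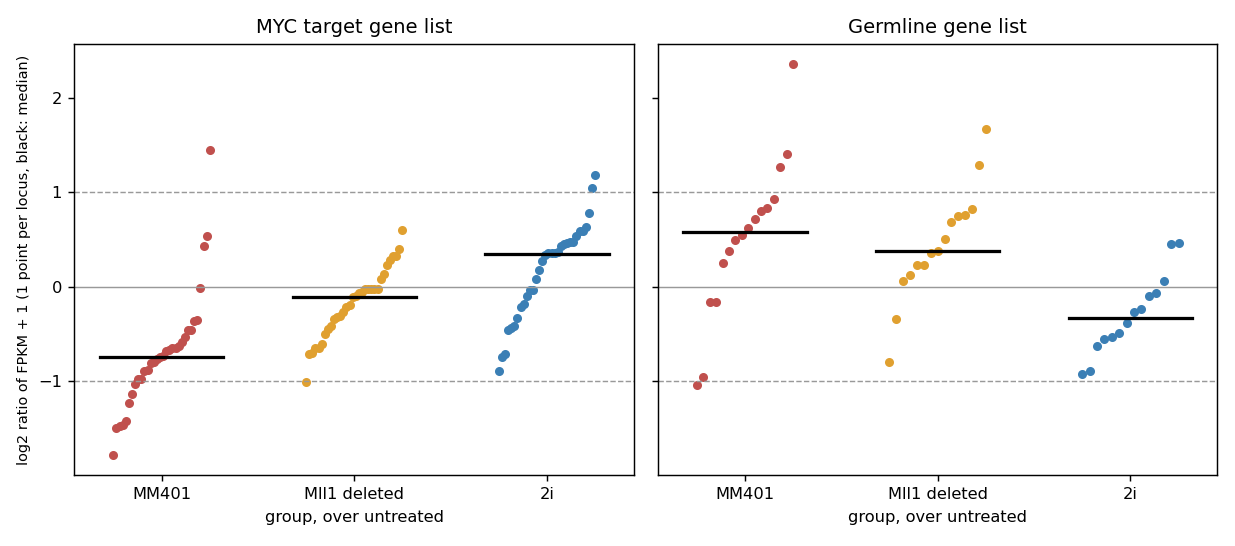
Log2 ratio of FPKM + 1 over untreated cells for each locus of the MYC target list (left) and the germline list (right) in MM401, Mll1-deleted and 2i cells, with a black line at the median and dashed lines at 2-fold. The target median was −0.74 in MM401 and 0.35 in 2i cells, and the germline median was 0.58 in MM401 and −0.33 in 2i cells.

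The subunits that join MGA in PRC1.6 had 0 of 11 past 2-fold in each of the 3 comparisons with untreated cells. Over all loci 13.1% passed in MM401, 6.68% in Mll1-deleted and 7.08% in 2i cells. The medians of the subunits were −0.11 in MM401, 0.05 in Mll1-deleted and −0.09 in 2i cells. Tfdp1 (−0.82), an E2F partner, and L3mbtl2 (−0.73), a reader protein of the complex, had the largest ratios in MM401, both with overlapping limits. Cbx3 was at −0.69 in Mll1-deleted and −0.71 in 2i cells, also overlapping. Tfdp2, another E2F partner, was at −0.55 in 2i cells in FPKM and at −1.10 with scaled counts.

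Among MYC coactivators 1 of 11 was lower in MM401 cells, where 6.08% of all loci were lower. It was Actl6a (−1.23), a subunit of chromatin remodellers, and Ruvbl1 (−0.90) had the next largest ratio. None of the 10 tested in Mll1-deleted or 11 in 2i cells passed 2-fold, where 6.68% and 7.08% of all loci did. Of 7 genes tested in MM401 among the SIN3 corepressors and Zbtb17, which encodes the MYC partner MIZ1, 1 was lower, beside the same 6.08%. It was the deacetylase gene Hdac1 (−1.05), with 71.0 FPKM in MM401 and 148 in untreated cells. That call was lost with scaled counts (−0.93). Both counts stand near the background. Of 11 genes of MYC stability, 0 passed 2-fold in MM401, where 13.1% of all loci did. Skp2, a ubiquitin ligase subunit that acts on MYC, was at −0.79 there with separate limits. In 2i cells Usp28 (−1.34), a deubiquitinase that counters FBXW7, was lower and Trib3 (1.24), a pseudokinase, was higher. Over all loci there, 4.16% were lower and 2.92% higher.

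A parallel branch pairs with MLX in place of MAX and senses glucose. Mlxipl, which encodes the factor ChREBP, was higher in MM401 cells, with 7.71 FPKM in MM401, 2.20 in Mll1-deleted, 0.797 in 2i and 1.48 in untreated cells. Its log2 ratio of MM401 over untreated cells was 1.81 with separate limits. Mlx and Mlxip, its partner and relative, did not pass 2-fold against untreated cells in any group, with ratios between −0.31 and 0.62.

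The same lists were also read between the treated groups. Of 32 MYC targets, 16 were lower and 1 higher in MM401 than in 2i cells, where 11.1% of all loci were lower and 10.4% higher. The median was −1.003 beside −0.08 over all loci, and Shmt2 had the largest ratio (−2.54). With scaled counts 9 were lower. Against Mll1-deleted cells 2 were higher and 5 lower (median −0.63 beside −0.09), led by the hexokinase gene Hk2 (−1.55), where 5.49% of loci were higher and 5.03% lower. With scaled counts 2 were higher and 3 lower, with a median of −0.32 beside 0.08. Germline genes had 8 of 16 higher and 0 lower in MM401 than in 2i cells (median 0.84 beside −0.08), against the same 10.4% of loci. In Mll1-deleted cells 6 of 15 were higher and 0 lower than in 2i cells (median 0.96 beside −0.02), where 5.97% of loci were higher. Tex101 in both comparisons, and Tdrd1 in MM401 (2.06 FPKM, and 0.222 in 2i), passed the filter of 1 FPKM only through the higher group. Between MM401 and Mll1-deleted cells 1 of 16 was higher, Sycp3 (1.05) of the meiotic chromosome axis, and 1 lower, Stra8 (−1.28), while scaled counts had 3 higher. Of the 11 PRC1.6 partners, L3mbtl2 (−1.23) and Wdr5 (−1.05) were lower in MM401 than in 2i cells, both with separate limits, where 11.1% of loci were lower. The Wdr5 call was lost with scaled counts (−0.82). No difference between lists was tested.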

How the data were processed

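RNA libraries were made with a TruSeq protocol, per the labels' protocols. SAMtools 1.5, TopHat2 2.1.1 and deepTools, and mm10 as the genome, are listed per the submitters' processing notes, with no step assigned to any. Per the file headers, the authors deposited FPKM with a lower and an upper limit. Per the file headers, the authors also deposited estimated counts per locus with a variance. Both kinds hold 1 column for the 2 libraries of a group. No source used here gives the confidence level of the limits or any use of strand. The 10 members and the lists were chosen with earlier results of these data known.

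Loci with a gene name, status OK in both groups and at least 1 FPKM in either were compared over the whole table with Python 3.11.15 and pandas 2.3.3 (pseudocount 1, threshold 2-fold). The ratios understate low genes, and an FPKM also depends on the transcript lengths assigned to a locus. The ratio script was checked on planted changes. All 10 members passed the filter in each of 6 comparisons. Named genes were the members, the 2 largest ratios of each list and the 3 loci most like Myc and Mycn (at least 5 FPKM in a group and 100 counts in all). Cdk4, Tert, Stra8, Taf7l, Mael, Hormad1, Tdrd1 and Mlxip, and repeats of a list's leading genes in other groups, were named after their values were seen. One gene that this rule names is not reported here. Annotation is GENCODE vM21 (mm10). Coordinates count from 1.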

Additional observations from a re-analysis of the deposited data

How the results depend on the processing

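No paired analysis was possible because the columns carry no replicate numbers, and leaving out a library was likewise not run. Calls were remade with a pseudocount of 0.1, no filter, a filter of 5 FPKM, counts scaled to totals, median-centred ratios, a 1.5-fold rule, a rule that adds separate limits, and, chosen after seeing the data, counts as deposited. At 1.5-fold 4 members were called in MM401, 1 in Mll1-deleted and 3 in 2i cells against untreated cells, 3 in MM401 against 2i and 2 in Mll1-deleted against 2i cells. Over all loci 34.8%, 17.5%, 22.5%, 47.9% and 30.5% passed 1.5-fold in these comparisons, so the members stand near the background. The counts as deposited called 2 in MM401 against untreated cells, Mycn and Myc, and 14.8% of all loci. In MM401 against Mll1-deleted cells 1 member, Mycn, was called with scaled counts, centring or separate limits, while counts as deposited called Mycn and Mxd3. In MM401 against 2i cells scaled counts called Mxd1 (1.17, higher) and not Mycn, while counts as deposited called Mycn. The germline median in MM401 cells was 0.80 with scaled counts. The MYC over MXD and Mnt ratio was 0.665 in MM401, 0.723 in Mll1-deleted, 0.817 in 2i and 0.985 in untreated cells without the highest member of each sum, and 0.867, 1.91, 1.45 and 2.42 in counts. Of 32 member ratios of at least 0.3 in size, 0 changed sign with the pseudocount, centring or either count scale. Scaled counts gave a median of all loci of 0.07 in MM401 against untreated (−0.04 in FPKM), −0.03 in 2i against untreated (0.08), 0.08 in MM401 against Mll1-deleted (−0.09) and 0.12 in MM401 against 2i (−0.08). They put 68.6% of MM401 calls against untreated cells on the higher side, where FPKM put 53.7%. In 2i against untreated cells these shares were 25.2% and 41.3%, in MM401 against Mll1-deleted 75.3% and 52.2% (62.8% centred), and in MM401 against 2i 70.5% and 48.3%. Counts as deposited put 55.6%, 36.5%, 53.9% and 49.4% on the higher side in these comparisons, in the same order. Their medians of all loci were −0.06, 0.07, −0.11 and −0.08. Before scaling, a unit of FPKM stood for 240 to 242 counts at Mycn and 493 to 495 at Mxi1 across the groups. At Max it stood for 48.5 to 71.8. With 1 pooled value per group, the spread between cultures stays unmeasured.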
